A study of Homo sapiens with 28 samples.

Results

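The long arm of chromosome 1, 1q, was described through the accessible regions that lie on it. Members were all regions of the deposited count table on chromosome 1 with a start at or beyond position 142500000 of GRCh37, which gave 7891 of 154985 autosomal regions. The choice used position alone and no measured value. In 38 other autosomal arms, only 2q held more regions.

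ATAC-seq, an assay that marks open DNA by letting a transposase insert adapters where it can cut, was run on 22 untreated multiple myeloma cell lines and on 6 of these lines after lenalidomide (10 µM, day 3). The untreated lines were H1112, Karpas620, KMS11, KMS12BM, KMS12PE, KMS18, KMS20, KMS21BM, KMS26, KMS27, KMS28, KMS34, L363, LP1, MM1S, OCIMY5, OPM2, PCM6, PE1, RPMI8226, U266 and XG-6. The treated lines were Karpas620, KMS27, L363, MM1S, OPM2 and RPMI8226. Each line was assayed once in each condition from sorted viable cells, so lines differ in genotype throughout and no error within a line was measured. KMS12BM and KMS12PE were derived from the same patient.

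Gain of 1q is among the most frequent chromosomal changes in myeloma and is usually read at band 1q21, which carries CKS1B, a cofactor of the ubiquitin ligase that degrades the cell cycle inhibitor p27, and MCL1, an anti-apoptotic protein on which plasma cells depend. Myeloma cells gain the arm as a whole, in part or by jumping translocations that move a 1q segment onto other chromosomes. ATAC-seq also leaves a low background of cuts in closed chromatin, and this background follows the amount of DNA present, while the cuts in open regions follow both the amount of DNA and its accessibility.

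Untreated libraries held 1599857 to 5564534 counts in regions, with a median of 2239819, and 63.9% to 88.0% of them fell in regions called in the same library. Lenalidomide libraries held 2168680 to 4248017 counts. The regions nearest to the starts of the 8 plasma cell markers SDC1, IRF4, PRDM1, XBP1, TNFRSF17, CD38, POU2AF1 and MZB1 were called in 18 to 22 of 22 lines. Markers of other cell types were mostly uncalled: the regions nearest to CD3D, CD3E, CSF1R and KRT18 were each called in 1 line, those of CD14 and CDH1 in 2 lines and that of MPO in 3 lines. Those nearest to CD8A (21 lines), CD2 (10 lines), EPCAM (9 lines), HBB (9 lines) and LYZ (6 lines) were called more widely, and ALAS2 was not analysed here.

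On 1q, the regions had a median width of 440 bp (420 bp over all regions) and a median GC content of 46.7%. The authors' annotation placed 20.8% of them at a promoter, against 19.98% over all regions, and 41.2% outside genes, against 37.9%. A call was present in all 28 libraries for 404 regions (5.12%, against 3.90% of all regions) and in a single library for 2746 (34.8%, against 37.2%). Between 1004 (L363) and 3588 (H1112) regions of 1q were called per untreated line.

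Of these regions, 4 are printed here because they carry the results that follow. They are the shared start of CKS1B and SHC1, the start of MCL1, the start of MGST3, which had the smallest adjusted p in the test against the 1q background, and an intergenic region with the steepest fitted slope among the 4 that passed. Each is the central 300 bases of the region in GRCh37, forward strand. Capitals mark matches, on either strand, to any of 7 motifs: CCGGAAGT (ETS), CCAAT (NFY), TGANTCA (AP-1), CACGTG (E-box), ATGCAAAT (octamer), GGGGCGGGG (GC box) and the paired-repeat interferon response motif. A match describes the letters and says nothing about binding.

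CKS1B and SHC1 start, chr1:154946772-154947071: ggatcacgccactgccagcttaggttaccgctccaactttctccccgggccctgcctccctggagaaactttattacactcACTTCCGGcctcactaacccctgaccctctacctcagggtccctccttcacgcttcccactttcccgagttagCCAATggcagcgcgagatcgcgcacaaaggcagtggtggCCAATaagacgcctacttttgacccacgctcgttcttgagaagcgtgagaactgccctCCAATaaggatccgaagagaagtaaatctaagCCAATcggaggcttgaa
MCL1 start, chr1:150552006-150552305: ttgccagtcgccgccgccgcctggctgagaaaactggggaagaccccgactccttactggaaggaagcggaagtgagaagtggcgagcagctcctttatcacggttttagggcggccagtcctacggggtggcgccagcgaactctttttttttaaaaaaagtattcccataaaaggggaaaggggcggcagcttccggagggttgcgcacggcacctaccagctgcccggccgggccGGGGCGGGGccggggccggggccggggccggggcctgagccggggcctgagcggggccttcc
MGST3 start, chr1:165600455-165600754: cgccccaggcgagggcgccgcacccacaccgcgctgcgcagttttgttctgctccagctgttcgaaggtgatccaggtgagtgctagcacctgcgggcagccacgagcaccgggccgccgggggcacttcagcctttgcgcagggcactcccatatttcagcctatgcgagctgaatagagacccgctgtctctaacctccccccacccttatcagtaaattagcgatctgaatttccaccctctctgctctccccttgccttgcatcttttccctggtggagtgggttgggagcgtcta
intergenic near HAPLN2, chr1:156597172-156597471: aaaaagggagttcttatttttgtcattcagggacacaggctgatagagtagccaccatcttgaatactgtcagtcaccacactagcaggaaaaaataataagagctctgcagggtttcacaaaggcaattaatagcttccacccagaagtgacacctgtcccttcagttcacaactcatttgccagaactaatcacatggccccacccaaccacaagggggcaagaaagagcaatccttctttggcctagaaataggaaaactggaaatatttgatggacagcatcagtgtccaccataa

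The CKS1B and SHC1 window held 1 ETS match and 4 CCAAT matches, and the MCL1 window 1 GC box. The MGST3 and HAPLN2 windows held none of the 7 motifs, and the latter held no CG dinucleotide. Over the central 300 bases of all 7891 regions of 1q, the ETS motif was present in 0.849% (0.970% of all regions), CCAAT in 31.7% (31.0%), the AP-1 motif in 15.8% (15.2%), the E-box in 5.03% (5.15%), the interferon response motif in 9.44% (9.60%), the octamer in 3.83% (3.71%) and the GC box in 2.56% (3.34%). On 1q, regions called in every library held the GC box in 20.05% and the AP-1 motif in 4.21%, and regions called in a single library held them in 0.728% and 17.9%. Outside 1q the same shares were 21.2% and 3.93%, and 1.23% and 16.9%.

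Background reads were then taken as a measure of the DNA content of 1q. A region without a call can still hold open signal below the call threshold, and how far this entered the measure was not tested. For each line, counts were summed over 1q regions with no call in that line and divided by the counts expected from the other untreated lines without a call there, with the median of the other arms set to 1. This background ratio therefore compares a line with the average of the lines and not with a diploid genome. Between 4173 and 6392 regions and 16524 to 47914 counts stood behind each value.

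The 1q background ratio ran from 0.713 in PCM6 to 1.35 in KMS21BM, a 1.90-fold range, with a median of 0.997. The lowest lines were PCM6, OCIMY5 (0.740), MM1S (0.840) and PE1 (0.841). The highest were KMS21BM, OPM2 (1.28), H1112 (1.22), KMS20 (1.16) and KMS11 (1.15). The 95% Poisson interval, which covers counting error only and treats PCR reads as independent molecules, lay above 1 in 10 lines, below 1 in 11 and spanned 1 in KMS18 (1.01). For PCM6 it ran from 0.702 to 0.724 and for KMS21BM from 1.34 to 1.37.

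**Figure D1:**
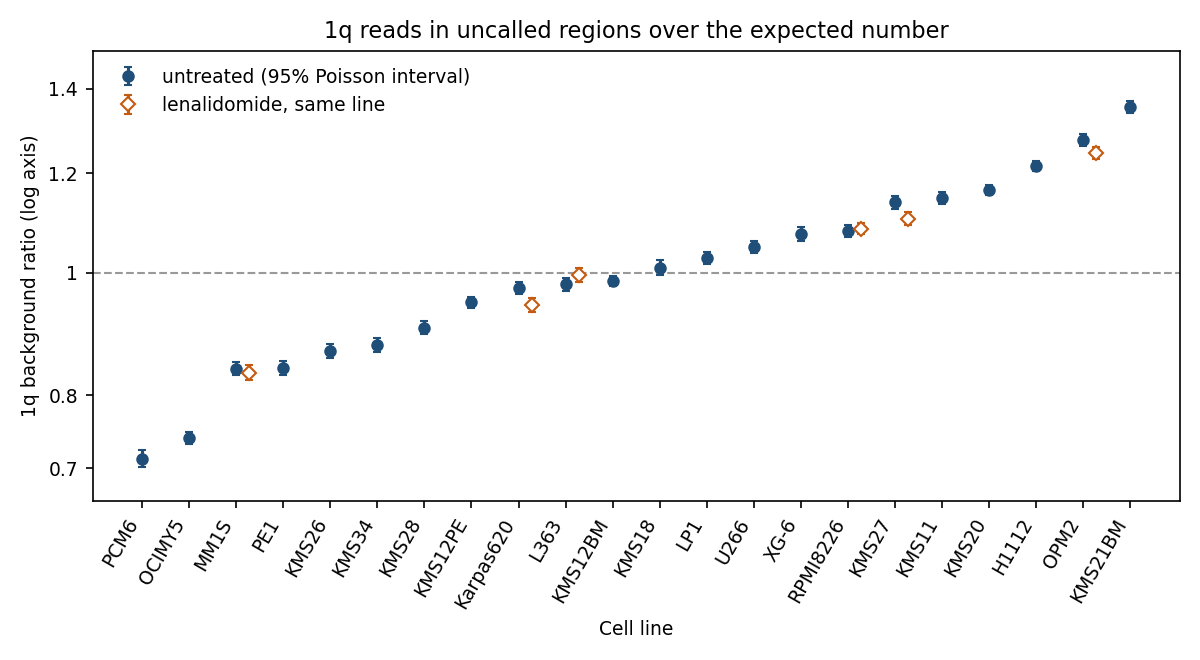
The 1q background ratio (log axis) of each cell line, ordered by value, with filled circles for untreated libraries, open diamonds for the lenalidomide libraries of the same lines and 95% Poisson intervals as bars. Untreated lines rise from 0.713 in PCM6 to 1.35 in KMS21BM, and each diamond lies within 1.03-fold of its circle.

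The lenalidomide libraries measured the same lines again under another condition. The ratio was 0.973 untreated and 0.943 treated in Karpas620, 1.14 and 1.10 in KMS27, and 0.980 and 0.996 in L363. It was 0.840 and 0.833 in MM1S, 1.28 and 1.25 in OPM2, and 1.08 and 1.08 in RPMI8226. The treated value was lower in 4 lines and higher in 2, and no pair differed by more than 1.03-fold. The mean change was -0.017 ± 0.029 on the log2 scale (SD, n = 6 pairs), which a two-sided exact sign-flip permutation test did not separate from 0 (p = 0.188, where the smallest p that 6 pairs allow is 0.0313). The SD of the ratio over the 22 lines was 0.24 on the log2 scale, beside an SD of 0.029 for the change between the paired conditions of a line, which includes any effect of the drug. With expected counts set within deciles of GC content, an alternative chosen after seeing the data, the mean change was -0.03 and the exact test gave p = 0.0313.

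For comparison, the same ratio for 1p ran from 0.824 in KMS20 to 1.28 in KMS21BM, and its Pearson r with 1q over the 22 lines was 0.18. KMS21BM was thus high on both arms, while KMS20 had 0.824 on 1p and 1.16 on 1q. Over the same lines the 1q ratio had an r of 0.08 with the library's counts, 0.08 with its number of calls and 0.28 with the GC trend of its background reads (points share the reference lines). The SD of the log2 ratio placed 1q at rank 23 of 39 arms, and the difference between paired libraries was smallest for 1q among these arms (root mean square 0.031, log2).

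Background density compared 1q with the rest of the same library, without other lines as reference. In regions called in exactly 1 of 28 libraries and not in the line, 1q held 6.35 to 27.9 counts per kb (median 12.1) and the other autosomal arms 5.48 to 17.6 (median 8.53). The ratio of 1q to the rest ran from 0.914 to 1.78 and lay above 1 in 20 of 22 lines. Its geometric mean was 1.31 (0.39 ± 0.26 on the log2 scale, SD, n = 22), past a two-sided sign-flip permutation test (p = 1e-05, the smallest 100000 permutations can give). This mean ranked first among 39 arms. Against 1p alone the geometric mean was 1.34, above 1 in 21 of 22 lines (same permutation test, p = 1e-05). The regions compared differ between arms, and a higher density cannot be told apart from a different choice of regions.

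Within 1q, the ratio was not uniform in every line. In intervals of 10 Mb from position 142.5 Mb, paired untreated and lenalidomide libraries differed by 0.09 on the log2 scale (root mean square over 66 pairs of intervals, largest 0.26). Differences within single lines reached 3.67-fold. The lines described next were picked after their values were seen and carry no test.

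In LP1, a line whose arm-wide ratio of 1.03 was close to the median, the ratio was 1.15 to 1.69 in the 6 intervals up to 202.5 Mb, 0.839 in the next and 0.460 to 0.577 in the last 4. The mean was 1.39 before 202.5 Mb and 0.576 after it. In intervals of 5 Mb the values were 1.44 from 197.5 Mb, 1.08 from 202.5 Mb and 0.545 from 207.5 Mb, so the fall lay around 202.5 to 207.5 Mb. The arm-wide value of LP1 was therefore the average of a high proximal and a low distal segment.

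KMS12PE differed from KMS12BM, the line from the same patient. In KMS12PE the ratio was 0.909 to 1.26 in the 5 intervals up to 192.5 Mb. It was 0.468 from 192.5 Mb, 0.418 from 202.5 Mb and 0.679 from 212.5 Mb, and 1.34 to 1.399 in the 3 intervals beyond 222.5 Mb. In KMS12BM all 11 intervals lay between 0.796 and 1.14. The arm-wide ratios of the 2 lines were 0.948 and 0.985, which hid this difference.

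Other lines had segments at the proximal end. KMS11 had 1.53 and 1.63 in the 2 intervals up to 162.5 Mb, then 1.03, and 0.819 in the last. KMS20 had 1.68 in the first interval, 1.396 in the next and 0.859 from 222.5 Mb. U266 had 1.23 and 1.33 up to 162.5 Mb and 0.879 in the next interval. KMS26 had its highest value, 1.47, from 202.5 Mb and 0.560 to 0.669 in the last 3 intervals. PE1 had 1.11 from 212.5 Mb and 0.632 in the next interval. PCM6 was low along the whole arm, between 0.591 and 0.803. KMS21BM, highest over the arm, was at 0.946 in the proximal interval that holds part of band 1q21 and at 1.81 from 212.5 Mb.

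**Figure D2:**
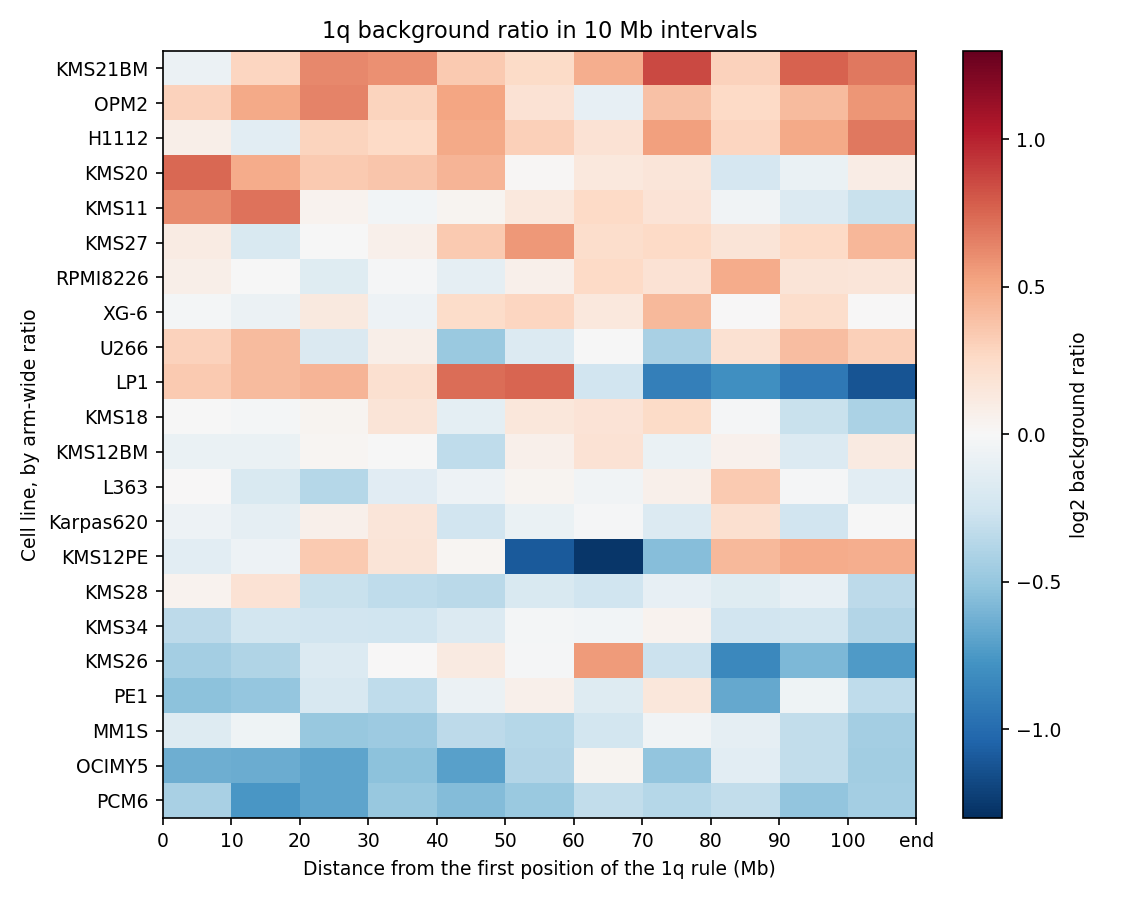
The log2 background ratio of 1q in 10 Mb intervals (columns, distance from the start of the 1q rule; the last interval is shorter) for 22 untreated lines (rows, ordered by arm-wide ratio), red above and blue below the expected count. LP1 turns from red to blue after 60 Mb, and KMS12PE is blue from 50 to 80 Mb while KMS12BM is pale throughout.

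Reads in open regions were summarised in the same intervals. Called signal was the share of counts that 1q took within the 6047 regions called in all 28 libraries, divided by its mean over lines. It rests on 404 regions of 1q, none of which entered the background ratio. In these counts, more copies of the DNA and greater accessibility of each copy cannot be told apart. In LP1 the called signal was 1.34 to 1.64 in the 6 intervals up to 202.5 Mb and 0.457 to 0.528 in the last 4. In KMS12PE it was 0.464, 0.382 and 0.616 in the 3 intervals from 192.5 Mb and 1.295 to 1.43 beyond 222.5 Mb.

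Across the 11 intervals, Pearson r between the 2 measures was 0.986 in KMS12PE, 0.979 in LP1, 0.940 in KMS26 and 0.926 in KMS20. It was 0.149 in KMS12BM and 0.172 in KMS34, lines that varied little along the arm. The median over lines was 0.756. These correlations describe intervals that share a library, with 12 to 81 called regions in each interval.

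**Figure D3:**
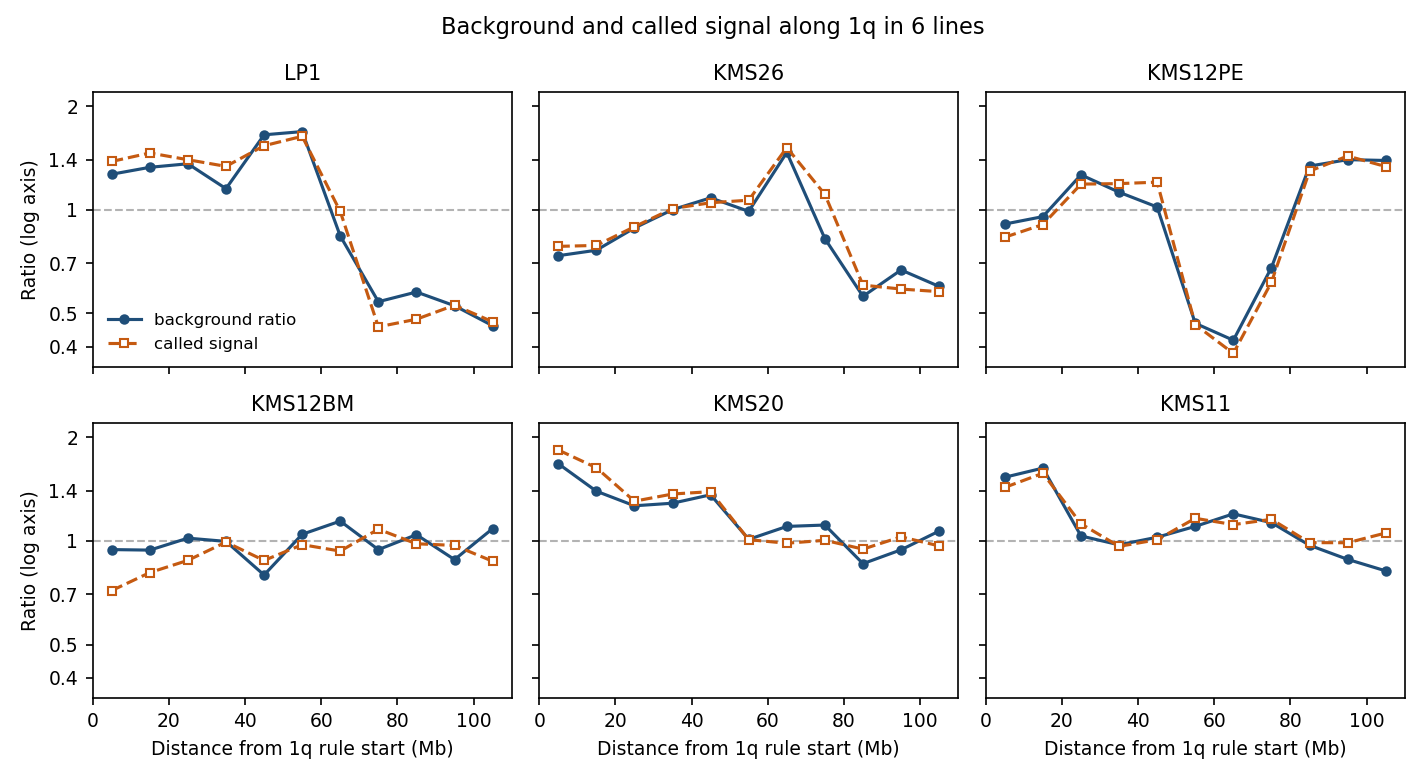
Background ratio (circles) and called signal (squares) in 10 Mb intervals along 1q on a shared log axis for 6 lines picked after their values were seen. Both series fall together in LP1 and KMS26 and dip together in KMS12PE, and KMS12BM stays within 0.718 to 1.14 in both.

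Over the whole arm, called signal ran from 0.672 in OCIMY5 to 1.35 in OPM2. The least-squares slope of log2 called signal on the log2 background ratio was 1.08 ± 0.092 (SE, n = 22). Pearson r was 0.934 and Spearman rho 0.921 (two-sided permutation tests, p = 1e-05 for each, the smallest 100000 permutations can give, and the only relation of this kind tested). Without PCM6 and KMS21BM, the lines farthest from the median, r was 0.910 (permutation test, p = 1e-05). A slope of 1 is what reads in proportion to background would give, and it lay within 1 SE of the fitted value. The slopes of all 39 arms put 1q at rank 21, so the relation was not particular to it. The share of a line's called regions that lay on 1q, 4.44% to 7.05%, had an r of 0.90 with the background ratio.

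**Figure D4:**
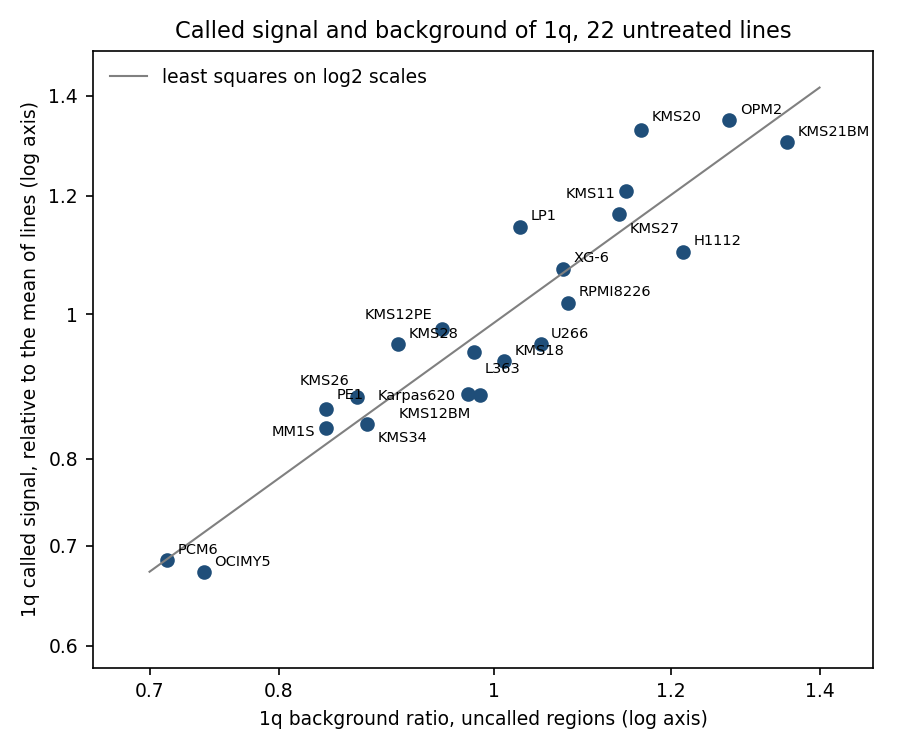
Called signal of 1q against the 1q background ratio (both log axes) for 22 untreated lines, with the least-squares line on log2 scales. OCIMY5 and PCM6 lie at the lower left below 0.75 on both axes, and OPM2, KMS21BM and KMS20 lie at the upper right.

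Single regions were then tested for a rise with the 1q background ratio. In edgeR's quasi-likelihood test, counts of 22997 autosomal regions called in at least 11 of 22 lines were fitted on the log2 ratio taken from regions called in a single library, which are disjoint from those tested. The slope is the change in log2 counts for each unit of log2 ratio, and the ratio spanned 1.04 log2 units. Of 1379 regions on 1q, 1291 had a positive slope (93.6%), against 46.6% of 21618 regions elsewhere. The median slope was 0.97 on 1q (quartiles 0.58 and 1.29) and -0.05 elsewhere, and the arm with the next highest median was 8p, at 0.56.

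After Benjamini-Hochberg adjustment, 4 regions of 1q rose, against 0.0174% of all regions tested, and none fell (1 fell at an unadjusted p below 0.05, and none in DESeq2). None passed elsewhere in edgeR, where 345 rose and 595 fell at an unadjusted p below 0.05. On 1q, 529 regions rose at that unadjusted level. In simulated counts, 200 of 22997 regions, drawn over all arms, were made to rise or fall. With a slope of 1, edgeR recovered 0 of the 200, with a slope of 2 it recovered 48 and with a slope of 3 it recovered 124. In the data most slopes on 1q were positive, unlike this setting, so these shares may not hold for regions of 1q. DESeq2 called 139 regions of 1q as rising, against 0.67% of all regions tested (0.77% in either direction and 0.1% falling), with 15 rising and 23 falling elsewhere.

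**Figure D5:**
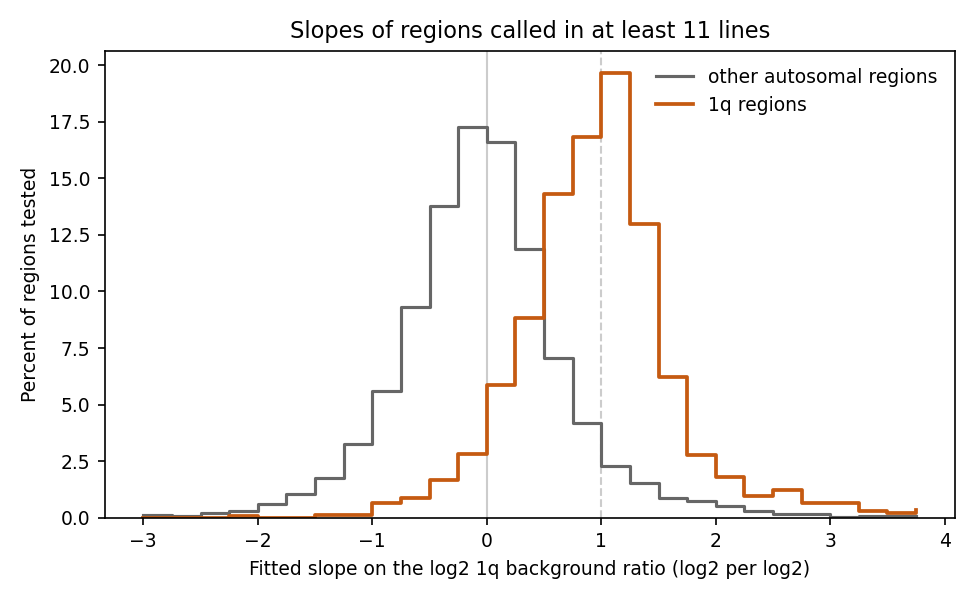
Distribution of fitted slopes for 1379 regions of 1q and 21618 other autosomal regions called in at least 11 lines, as percent of regions in steps of 0.25 (values outside the axis are placed in the end steps). The 1q distribution is centred near 1 and the other near 0.

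The 4 regions past the threshold were the following. The region at the start of MGST3, a microsomal glutathione transferase, lies at chr1:165599690-165601519 and was called in all 22 lines. Its CPM, the count scaled to a common library total in regions, was 51.6 in PCM6 at the lowest, 116 at the median and 220 in OPM2 at the highest, and its slope was 1.82 ± 0.24 (SE, edgeR adjusted p = 0.00183).

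The region at the start of NPL, which encodes a sialic acid lyase, lies at chr1:182758313-182759215. It had 20.9 CPM in PCM6, a median of 54.9 and 110 in KMS21BM, with a slope of 1.88 ± 0.30 (edgeR adjusted p = 0.0181). At MPZL1, a cell surface glycoprotein, the region chr1:167690705-167691827 had 29.2 CPM in OCIMY5, a median of 70.2 and 120 in LP1, with a slope of 1.64 ± 0.27 (edgeR adjusted p = 0.0243). The intergenic region chr1:156597027-156597615 near HAPLN2, called in 12 lines, had 2.32 CPM in PCM6, a median of 8.75 and 42.8 in KMS21BM, with a slope of 3.24 ± 0.55 (edgeR adjusted p = 0.0263). PCM6 or OCIMY5, the lines with the lowest 1q ratio, was lowest at each of the 4, which selection for a rise with that ratio favours. With library totals in place of TMM scaling, only MGST3 passed, and DESeq2 called 3 of the 4. MGST3 passed with each of the 22 lines left out in turn, NPL in 18 of these fits (not without KMS21BM, MM1S, OCIMY5 or PCM6) and MPZL1 in 15 (not without KMS27, KMS34, MM1S, OCIMY5, OPM2, PCM6 or PE1). The HAPLN2 region passed in 13, and not without KMS21BM, KMS26 or any of the 7 lines named for MPZL1.

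By position, the median slope was 1.07, 1.13 and 1.28 in the first 3 intervals of 10 Mb and 0.45 in the interval from 202.5 Mb, the lowest of the 11, between 0.90 and 0.81 in its neighbours. In that interval 150 of 183 regions had a positive slope. A local ratio, taken from single-library regions of the same interval, followed the regions more closely there. The median Pearson r over lines between a region's log2(CPM + 1) and the ratio was 0.15 with the arm-wide ratio and 0.45 with the local one. Over all 1379 regions the medians were 0.32 and 0.49, and r was higher with the local ratio in 1128 regions (81.8%). Promoter regions (651) had a median slope of 1.01 and the other 728 a median of 0.92.

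The genes on the arm were grouped by lists, each gene represented by the region within 2.5 kb of a transcription start with the highest mean CPM. That choice favours high CPM and calls in many lines, so levels and calls of the lists are not matched to those of all regions. Regions of 1q had a median of 2 calling lines and a median SD of log2(CPM + 1) over lines of 0.81. No list region passed the edgeR threshold in either direction, so the following are levels and fitted slopes.

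The 20 candidate genes of band 1q21 all had a region, and 19 regions were distinct, since CKS1B and SHC1 share one. Of these, 16 were called in all 22 lines, as were 412 of 7891 regions of 1q and 6173 of 154985 autosomal regions. All 19 slopes were positive, with a median of 1.198 beside 0.97 for 1q and -0.01 for all regions tested. At an unadjusted p below 0.05, 18 rose, beside 97 of 171 and 137 of 239 regions tested in those intervals and 874 of 22997 over all. On 1q, 335 of 651 promoter regions and 194 of 728 others rose at that level, with median SEs of 0.44 and 0.69. None of these comparison sets was matched to the candidates in CPM. DESeq2 called 11 as rising, beside 10.1% of regions tested on 1q and 0.67% of all regions tested. OPM2 was highest at 7 regions, KMS20 at 5 and KMS11 at 4. PCM6 and OCIMY5 were each lowest at 6.

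The region of CKS1B and SHC1, whose central bases are given above, lies at chr1:154946160-154947683. It had 55.8 CPM in PCM6, a median of 97.6 and 183 in KMS11, followed by 174 in OPM2. KMS21BM, highest over the arm, had 80.3. Its local background in the 5 Mb from 152.5 Mb was 1.15, against 1.68 for KMS11, and a link between the local background and these CPM values was not tested. The slope was 1.05 ± 0.26 (edgeR adjusted p = 0.162).

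The MCL1 region, chr1:150551674-150552636, had 21.3 CPM in PE1, a median of 46.0 and 88.7 in OPM2, with a slope of 1.38 ± 0.33 (edgeR adjusted p = 0.143). ILF2, an RNA-binding protein, ran from 38.1 CPM in PCM6 to 155 in OPM2, with a slope of 1.24 ± 0.32. BCL9, a co-activator of β-catenin, ran from 26.3 CPM in PE1 to 153 in OPM2, with a slope of 1.44 ± 0.35. IL6R, the receptor of interleukin-6, ran from 22.8 CPM in PCM6 to 110 in OPM2. The proteasome subunits PSMD4 and PSMB4 had medians of 31.4 and 22.01 CPM and were both highest in KMS20. PDZK1, a scaffold protein of epithelia, was the exception, called in 19 lines, with 2.02 CPM in KMS27 and 40.4 in KMS11 and a slope of 0.42 ± 0.89 that was -0.04 without PCM6.

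Of 24 genes of the B and plasma cell surface, 23 had a region and SLAMF6 had none. Only 3 of these regions were called in all 22 lines, at FCRL5, CD55 and CD46, and the median was 6 lines. Their SD of log2(CPM + 1), 0.96 at the median, was larger than the 0.52 of the 1q21 candidates. Their median mean CPM was also lower, 7.90 against 60.3, and how far low counts entered the SD was not tested. FCRL5, an Fc receptor-like protein of plasma cells, was represented by chr1:157493589-157494466. That region lies within 2.5 kb of an annotated transcript start, which need not be the main promoter. It had 5.11 CPM in PCM6, a median of 29.6 and 64.7 in OPM2. CD55 and CD46 protect cells from complement, and CD55 had 38.6 CPM in LP1, a median of 119 and 252 in KMS18.

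CD46 had 28.7 CPM in LP1, 40.7 in KMS12PE, a median of 71.4 and 183 in KMS26. Both low lines had low background at its position and KMS26 had 1.47 there. SLAMF7, the target of elotuzumab, was represented by an intronic region called in 4 lines with a median of 7.26 CPM. CR2, the complement receptor of mature B cells, was called in 16 lines and ran from 2.79 CPM in PCM6 to 102 in KMS26. The 9 regions tested all had positive slopes, with a median of 0.67, but the slopes of FCRLB and CR2 turned negative without PCM6, and that of CR2 also without KMS21BM. FCGR2A and FCGR2B lie among near-identical copies, and their regions were called in 0 and 4 lines, so their values are uncertain.

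All 13 genes of the cell cycle and genome maintenance list had a region called in all 22 lines, with a median mean CPM of 62.2 beside 3.07 over 1q. They lie mostly in the distal part of the arm. Their slopes were all positive, with a median of 0.52. KMS12PE was lowest at 6 of them and LP1 at 5. MDM4, an inhibitor of p53, had 14.5 CPM in KMS12PE, a median of 39.2 and 106 in KMS26, while KMS12BM had 48.7. Its slope on the arm-wide ratio was 0.22 ± 0.50. NEK2, a centrosomal kinase, ran from 27.4 CPM in LP1 to 99.6 in KMS26. EXO1, an exonuclease of DNA repair, ran from 49.5 CPM in LP1 to 212 in KMS27. ASPM, a spindle protein at a position where the background of LP1 was high, ran from 49.6 CPM in KMS12PE to 166 in LP1. A link between the local background and these CPM values was not tested.

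All 16 genes of the secretory pathway and unfolded protein response had a region, 12 of them called in every line, with a median slope of 0.93 and 15 positive slopes. EDEM3, which acts in the degradation of misfolded glycoproteins, had 93.7 CPM in OCIMY5, a median of 157 and 349 in KMS27. ATF6, a sensor of the unfolded protein response, ran from 12.6 CPM in PCM6 to 43.3 in OPM2, and ATF3, a stress-induced transcription factor, from 46.8 in KMS12PE to 254 in KMS18. SEC22B, a vesicle fusion protein, had the only negative slope (-0.86 ± 0.73), which was 0.08 without KMS26, and the slope of HSPA6 (0.26) turned negative without OPM2 or without PCM6. The SEC22B region had 67.2 CPM in KMS26 and at most 28.05 in the other lines. It lies among copies of that gene, so its counts are uncertain.

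Of 12 transcription factors of other tissues, 11 had a region and LMX1A had none. None of these was called in all 22 lines. PROX1, a factor of lymphatic and liver cells, had 0.254 CPM in KMS12PE, a median of 22.3 and 88.2 in OPM2. ELF3, an epithelial factor, ran from 8.99 CPM in H1112 to 111 in OPM2. Over the 7 regions tested the median slope was 0.62 and 5 were positive, and the sign turned for PROX1 without OPM2. Of 20 genes of the epidermal differentiation complex, a cluster of skin genes in band 1q21, 7 had a region. These had a median mean CPM of 3.30 and were called in a median of 4 lines, and 1 was tested (SPRR4, slope 0.68 ± 0.83).

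The regions of highest mean CPM lay at starts of genes and were called in all 22 lines. The highest, chr1:143912880-143914459 at FAM72D, ran from 70.0 CPM in KMS12PE to 733 in KMS27, and the next, chr1:149223012-149224823 at the small nuclear RNA gene RNVU1-18, from 77.1 in KMS12BM to 579 in OPM2. Both genes belong to families of near-identical copies, so their counts are uncertain. The region at SUCO ran from 122 CPM in OCIMY5 to 431 in OPM2, that at TRMT1L from 118 in OCIMY5 to 386 in KMS27, and chr1:206137102-206138729, at the start of RP11-312O7.2, from 78.4 in KMS12PE to 513 in KMS27.

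Other regions varied far beyond the range of the background ratio. Among those called in at least 2 untreated lines, the largest SD of log2(CPM + 1) was at chr1:245836157-245836917, in an intron, with no count in LP1 or KMS34, a median of 2.13 CPM and 148 in OPM2. The region at the start of TRIM58, a ubiquitin ligase of erythroid cells, was called in 10 lines and ran from 0.273 CPM in U266 to 116 in KMS21BM. A region in a cluster of histone genes, chr1:228644968-228647151, was called in 14 lines and ran from 0.930 CPM in PCM6 to 232 in KMS27. The intergenic regions chr1:218337256-218339179 and chr1:163795523-163796282 were each called in 13 lines and reached 180 and 149 CPM in OPM2.

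A call in 1 untreated line alone was found for 2753 regions of 1q. H1112, the library with the most counts, held 824 of them (22.97% of its calls on 1q) and L363 held 6. In H1112, chr1:238639923-238640607 had 85.0 CPM and chr1:225069452-225070100 had 61.3, and in no other line did either exceed 5.60. In XG-6, chr1:190584947-190585512 had 76.7 CPM, and in U266, chr1:195691350-195692276 had 60.4. These 4 were intergenic in the authors' annotation.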

How the data were processed

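ATAC-seq counts of 22 untreated and 6 lenalidomide libraries were used, with 1 library for each line and condition. The authors aligned reads to GRCh37 and called and merged peaks, and the submitters' processing notes name Bowtie2 2.2.6, SAMtools 1.7 and MACS2 2.1.0.20151222. Whether marked duplicates were removed, read ends shifted or fragments counted is not given in the sources used here. The raw count of each library in each region was deposited by the authors, as was a second table of whole numbers for the same regions and libraries, in which a value above 0 was read as a call (a peak of that library there), a reading that no header states. Their normalized table and peak files were not used.

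CPM is each count scaled by the sum over regions of its library. Background ratios needed at least 11 other lines without a call. Poisson intervals are exact. The count fit used edgeR 4.0.16 (R 4.3.3, TMM, glmQLFit, adjusted p below 0.05) on a continuous covariate, so lines were never grouped by a measured value, and was tested on simulated data. Standard errors were derived from the slope and its F statistic. DESeq2 1.42.0 was an alternative. Transcription starts of the gene lists came from GENCODE v44 lifted to GRCh37.

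Named regions were, besides the list genes, the 5 with the highest mean CPM, the 5 with the largest SD of log2(CPM + 1) called in at least 2 lines, up to 5 with the largest and smallest slopes past the threshold, and the 5 with the highest CPM among regions called in 1 line. Of the last, 1 is not reported here, nor are some single genes of the lists. The members, set by position alone, and the lists were chosen with earlier results of these data known. P-values over lines measure the spread between lines, each assayed once. Alternatives were other background regions, scalings and filters, each line left out, and expected counts within GC deciles, the last chosen after the data were seen.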

Additional observations from a re-analysis of the deposited data

How the results depend on the processing

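The count of 1q regions rising with the background ratio, 4 in edgeR, depended on the settings. It was 1 with library totals in place of TMM, 1 with filterByExpr over all regions, 1 with regions called in at least 6 lines, 10 with the ratio from all regions not called and 139 with DESeq2, and between 1 and 11 with a line left out (1 without MM1S, OCIMY5 or PCM6, 2 without KMS27, KMS34, OPM2 or PE1, 6 without KMS12PE, which shares a patient with KMS12BM, 9 without KMS21BM and 11 without XG-6). The median slope on 1q stayed between 0.90 and 1.10 in the settings that kept all lines. The spread of the background ratio was 0.27 (log2) with regions called in exactly 1 library. The change after lenalidomide had p = 0.0313 (exact sign-flip permutation test, 6 pairs, mean -0.034) with expected counts within GC deciles. The log2 ratio of L363, -0.03, was 0.0026 with regions called in at most 3 libraries, 0.0023 when scaled by all other background counts and 0.0088 within GC deciles. The slope of the intergenic region at 218337256 was -0.071 with library totals, and with a line left out it ran from -1.14 to 0.50. Of 77 named genes and regions with a slope, 9 changed sign when some line was left out, none of them past the threshold, among them PDZK1, FCRLB, CR2, SEC22B, HSPA6, PROX1, that region (without Karpas620, KMS11, OCIMY5, OPM2 or PCM6) and the one at 163795523 (1.46, and -0.09 without OPM2). The cause of these changes was not tested. No density ratio or slope of called signal changed direction or side of the threshold under any alternative run. No paired analysis was possible because the labels number no replicates, other than the pairing by line already used for lenalidomide. Background reads averaged 2.90 to 10.4 counts in each 1q region, which limits values to sums over many regions.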
